A study of Mus musculus with 11 samples.

Results

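A group of 10 transcription factor genes that steer exhausted and effector CD8 T cells were followed in bulk RNA-seq of tumor-infiltrating precursor exhausted CD8 T cells from untreated mice and from mice treated with anti-LAG-3 (aLAG3). The genes, Tox, Tox2, Eomes, Tbx21, Prdm1, Id2, Batf, Irf4, Runx3 and Zeb2, were taken by name, with no threshold on a measured value, although earlier results of these data were known when the list was made. They are 10 of the 32469 gene symbols in the deposited count table, and 8 of them passed the filter on low counts, as did 6949 symbols in all, whereas Tox2 and Prdm1 did not. The study used bilateral flank tumors of Lewis lung carcinoma (LLC), a cell line from a lung carcinoma of C57BL/6 mice, and asked how blockade of LAG-3, a receptor that restrains exhausted T cells, changed these cells. The host mice were wild-type C57BL/6 females, 8 weeks old when obtained. The 5 untreated mice carried the same tumors and received no antibody, and no isotype control is given in the sources used here. The 6 aLAG3 mice received 200 µg of the blocking antibody into the peritoneum on day 14 and again on day 16 after inoculation. Tumors were taken on day 14 and on a later day, given as 21 in the series description and as 18 in the study's methods. By the paper, the sequenced cells came from the later tumors, taken after treatment had begun. Each library came from the sorted cells of a separate mouse, and the sort was for CD8+PD-1+Ly108+TIM-3-CD62L- cells, so every library was restricted to the precursor compartment and terminally exhausted cells were gated out of both groups. The study's gating figure for tumor T cells also lists a dump channel, for cells to be left out, of CD11b, B220, NK1.1 and TER119.

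Exhausted CD8 T cells arise under lasting antigen and are kept by a precursor pool, marked by Ly108 and the factor TCF-1 (Tcf7), which renews itself and gives rise to short-lived TIM-3+ progeny. TOX is needed for this lineage to persist, T-bet (Tbx21) and EOMES are T-box factors whose balance shifts as precursors differentiate, and BATF with IRF4 binds DNA downstream of the T cell receptor. Blimp-1 (Prdm1), ID2, RUNX3 and ZEB2 are known for promoting effector or terminal fates in CD8 T cells, and act against factors such as BCL6, ID3, BACH2 and ZEB1.

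Total counts ran from 313524 to 1901374 per library, so that 3 counts corresponded on total counts to 9.57 CPM (counts scaled to library depth) in the shallowest library and to 1.58 CPM in the deepest. All other CPM of single genes are on totals scaled with TMM factors, apart from pooled ones. The reads carried no molecular identifiers, and limits of this kind cover counting error only. The primer barcode given in the sample titles went with depth. Barcode 9 was used for 3 untreated and 3 aLAG3 libraries, with a median total of 1141450 counts. Barcode 8 was used for untreated replicate 4 and for aLAG3 replicates 8, 10 and 11, with a median of 411796, and barcode 10 for untreated replicate 2 alone. Apart from the barcode, some libraries share a name in the titles. Untreated replicates 2 and 3 and aLAG3 replicate 10 share 1 name, and untreated replicates 4 and 5 share another, while each of the other 6 libraries has its own. The label of CD8 T cells was met, since the summed level of 6 T cell genes (Cd3d, Cd3e, Cd3g, Cd8a, Cd8b1 and Cd2) was 5031 to 5296 CPM in untreated and 5088 to 5584 CPM in aLAG3 libraries. Havcr2, which encodes TIM-3, had 0 to 7 counts per library.

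No member of the group differed between aLAG3 and untreated mice after adjustment. Of the 8 tested members, 0 had an adjusted p under 0.05 in edgeR's quasi-likelihood test, where 0% of the 6949 genes did. At an unadjusted p under 0.05 there was 1 of 8 (Tox), beside 258 genes or 3.71% of all genes tested. The aLAG3 and untreated CPM overlapped for all 10 members, and only 34 genes, or 0.489% of those tested, had groups that did not overlap. DESeq2 and the likelihood ratio test of edgeR also gave 0 adjusted calls among the members. When all 24024 symbols with at least 1 count were fitted without a filter, 7 genes passed the adjusted threshold, 0.0291% of them, and no member was among them. In that fit 2 of the 10 members had an unadjusted p under 0.05, Tox and Tox2, where the share over all symbols was 4.52%. The log2 fold changes of the 8 tested members lay between -0.12 and 0.32, with 6 above and 2 below 0 and a median of 0.045, beside a median of 0.0041 over all genes. This lean was not stable, since 4 of the 8 were below 0 with primer barcode as a term (median 0.0098), and 5 of 8 without untreated replicate 3 (median -0.013) or replicate 5 (median -0.014). In bulk RNA, fewer cells that use a gene and less RNA of it per cell cannot be told apart.

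**Figure D1:**
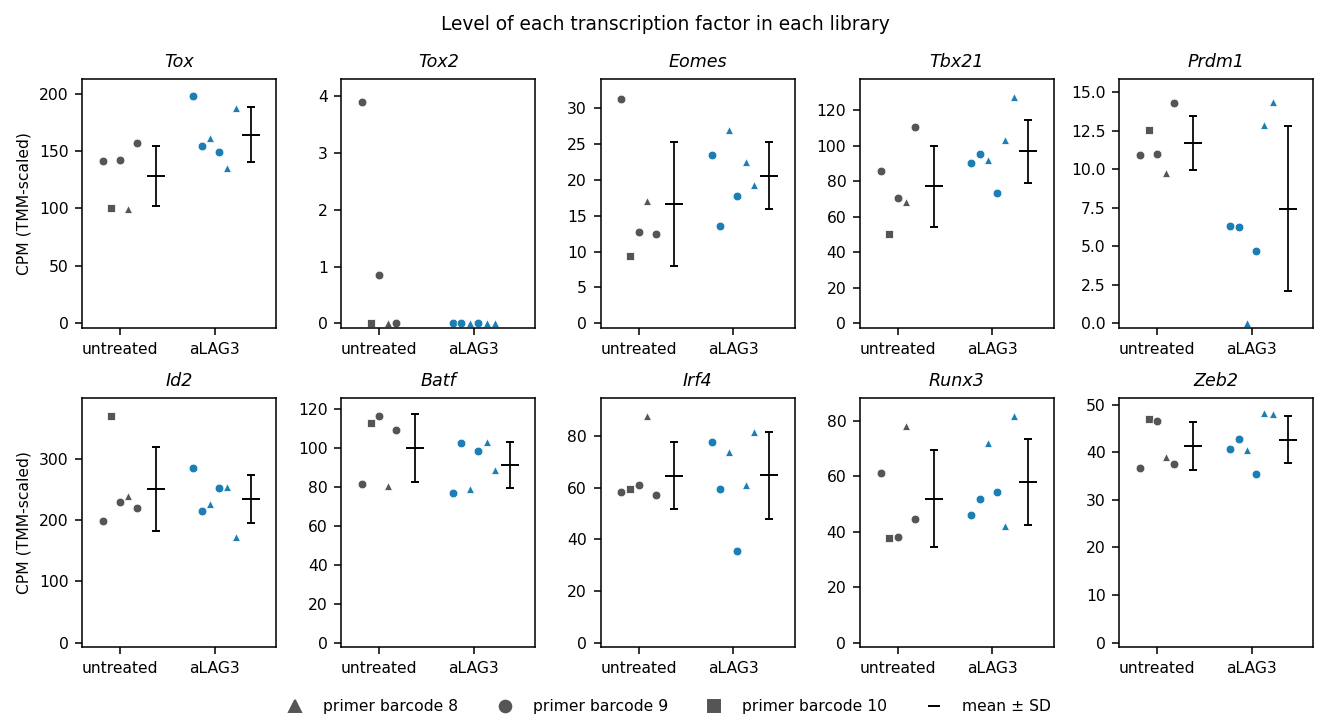
Level of each of the 10 factors (y axis, TMM-scaled CPM, from 0) in each library, with untreated mice in grey and aLAG3 mice in blue; marker shapes give the primer barcode and black bars the mean ± SD of a group (not drawn for Tox2, with 9 libraries at 0). Tox and Tbx21 lie higher on average in aLAG3 mice but the groups overlap in every panel, and the aLAG3 libraries of barcode 9 lie below all untreated libraries for Prdm1.

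Tox, which encodes the high-mobility-group protein that programs exhausted T cells, had the highest fold change of the tested members. Its level in untreated mice 1 to 5 was 141, 100.3, 142, 99.9 and 157 CPM, and in the 6 aLAG3 mice it ran from 135 to 198 CPM with a median of 158. The 2 lowest values belonged to untreated replicates 2 and 4, which rest on 32 and 41 reads, and the aLAG3 range overlapped the upper untreated values. The untreated mean was 128 ± 26.4 CPM (SD, n = 5) and the aLAG3 mean 164 ± 23.8 CPM (SD, n = 6). The log2 fold change was 0.32 ± 0.13 (SE), with a 95% interval of 0.061 to 0.58, which is a fold of 1.25 (1.04 to 1.49). Its unadjusted p was 0.0172, and the adjusted p of edgeR's quasi-likelihood test was 1.00 over the 6949 genes, of which 82 had a smaller p. Within barcode 9 the means were 147 ± 8.80 and 167 ± 26.7 CPM (SD, n = 3 each) with overlapping ranges, and the log2 fold change there was 0.19 (edgeR, unadjusted p = 0.152). Within barcode 8 the single untreated library had 99.9 CPM and the 3 aLAG3 libraries 135 to 187 CPM. Among the 3 libraries that share a name across groups, Tox was at 100.3 and 142 CPM in untreated replicates 2 and 3 and at 135 CPM in aLAG3 replicate 10, and with the name as a term its log2 fold change was 0.065 ± 0.29 (SE), a fit with 2 residual degrees of freedom whose group difference rests on those 3 libraries. Leaving out untreated replicate 4 or aLAG3 replicate 6 took the unadjusted p of Tox to 0.0538 and 0.0713. The Tox gene is at chr4:6686353-6991557 on the minus strand of GRCm38, and 2.83% of the distinct 50-base stretches of its transcripts occur in transcripts of other genes. Its exons overlap Gm11802 on the other strand, and whether strand was used in counting is not stated, so reads of the pair may not have been kept apart.

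Tox2, the paralog induced with TOX in exhausted cells, was close to undetected in these cells. It had 5 reads in untreated replicate 1, 1 read in untreated replicate 3 and 0 reads in each of the other 9 libraries. Untreated reads pooled gave 1.60 CPM on total counts, and 3 counts over all aLAG3 reads correspond to 0.596 CPM. The untreated value was 2.69-fold that limit, but the counting error of the 6 untreated reads was left out. That ratio is therefore not a lower bound on a difference. The ratio rests on untreated replicate 1, because without it 1 read remained in the untreated group, which is under the 3-count limit. In the fit without a filter the log2 fold change was -3.30 ± 1.14 (SE, edgeR unadjusted p = 0.0039, adjusted p = 0.725). Over single aLAG3 libraries 3 counts are worth 1.58 to 9.57 CPM, so a difference at this level was not detectable library by library.

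The T-box genes differed from each other in level and in spread. Tbx21, which encodes T-bet, the activator of Ifng and cytotoxic genes, had 85.9, 50.2, 70.3, 68.2 and 111 CPM in untreated mice 1 to 5 and 73.2 to 127 CPM, with a median of 93.6, in aLAG3 mice. The lowest level was in untreated replicate 2 and the highest in aLAG3 replicate 11, and the groups overlapped. The means of 77.1 ± 22.7 CPM (SD, n = 5) and 96.8 ± 17.8 CPM (SD, n = 6) gave a log2 fold change of 0.25 ± 0.16 (SE, 95% interval -0.069 to 0.58, edgeR unadjusted p = 0.118, adjusted p = 1.00). Within barcode 9 the means were 89.0 ± 20.4 and 86.2 ± 11.5 CPM (SD, n = 3 each). The barcode 8 libraries had 68.2 CPM in the untreated mouse and 92.0 to 127 CPM in the 3 aLAG3 mice. Without untreated replicate 5 the unadjusted p of Tbx21 was 0.0223. With the shared library name as a term its log2 fold change was 0.67 ± 0.36 (SE), from 50.2 and 70.3 CPM in untreated replicates 2 and 3 against 103 CPM in aLAG3 replicate 10.

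Eomes, which encodes the T-box factor of memory and of exhausted cells, was much lower, with 31.3, 9.40, 12.7, 17.1 and 12.5 CPM in untreated mice 1 to 5 and 13.6 to 26.9 CPM (median 20.9) in aLAG3 mice. Untreated replicate 1 held the highest value and replicate 2 the lowest, so the untreated group spanned all aLAG3 values. The log2 fold change was 0.066 ± 0.30 (SE, 95% interval -0.54 to 0.67), an interval that does not exclude changes of 1.59-fold up or to 0.687-fold. Its sign was not stable, with a log2 fold change of -0.053 with primer barcode as a term, -0.18 in barcode 9 alone, 0.92 with the shared library name as a term, and a value below 0 in 4 of the 7 fits with a library left out in which it passed the filter. Eomes reached the 17.7 CPM of the filter in 6 of the 11 libraries, and its biological coefficient of variation of 0.245 was higher than that of 96.6% of the genes tested. Its exons overlap Gm33460 on the other strand. Some of its sequence is also shared with other genes. Tbx21 exceeded Eomes in read count in every library. The log2 ratio was 2.22 ± 0.598 in untreated (SD, n = 5) and 2.20 ± 0.421 in aLAG3 mice (SD, n = 6), which differ by -0.017 (two-sided exact permutation test, p = 0.952). Summed NK cell markers ran from 39.3 to 72.5 CPM in untreated and from 61.5 to 137 CPM in aLAG3 libraries, nearly all of it Klri2. Of the other 4 NK genes, Klrb1c had 13 reads in all libraries together, with none in 3 of them, Klra4 had 5, Ncr1 had 1 and Klra8 had 0, and the part of NK cells in the T-box levels was not tested.

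Upstream of the gene starts, 250 bases from RefSeq (GRCm38.p6) were searched for the letters that members of the group are known to bind. Entries were found for 9 of the 10 members (17 starts), all but Tox. Shown here are the upstream stretches of Tbx21, which ran with Tox across the mice, of Eomes and Batf, which ran most oppositely, and of Prdm1, whose groups separated within barcode 9. Capitals mark matches, on either strand, to an E-box (CAGGTG), a RUNX motif (TGTGGT), an AP-1 motif (TGANTCA) or an IRF motif (GAAA followed by another GAAA after 2 bases).
Tbx21, minus strand, chr11:97115332-97115581: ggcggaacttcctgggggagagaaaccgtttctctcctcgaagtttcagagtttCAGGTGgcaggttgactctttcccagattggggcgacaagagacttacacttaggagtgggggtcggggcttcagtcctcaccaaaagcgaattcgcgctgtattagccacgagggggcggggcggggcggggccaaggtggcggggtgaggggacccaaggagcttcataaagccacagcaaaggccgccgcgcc
Eomes, plus strand, chr9:118477939-118478188: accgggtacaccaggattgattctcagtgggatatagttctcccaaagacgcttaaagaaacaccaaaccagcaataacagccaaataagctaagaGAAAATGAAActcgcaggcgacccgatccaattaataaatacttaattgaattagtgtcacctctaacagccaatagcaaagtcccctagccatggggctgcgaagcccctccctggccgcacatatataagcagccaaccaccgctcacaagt
Prdm1, minus strand, chr10:44458749-44458998: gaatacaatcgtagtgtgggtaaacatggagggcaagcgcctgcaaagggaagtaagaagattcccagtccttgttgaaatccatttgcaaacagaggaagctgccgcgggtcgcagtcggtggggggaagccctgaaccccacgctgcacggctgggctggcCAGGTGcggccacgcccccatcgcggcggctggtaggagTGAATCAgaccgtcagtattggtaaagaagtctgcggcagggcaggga
Batf, plus strand, chr12:85686470-85686719: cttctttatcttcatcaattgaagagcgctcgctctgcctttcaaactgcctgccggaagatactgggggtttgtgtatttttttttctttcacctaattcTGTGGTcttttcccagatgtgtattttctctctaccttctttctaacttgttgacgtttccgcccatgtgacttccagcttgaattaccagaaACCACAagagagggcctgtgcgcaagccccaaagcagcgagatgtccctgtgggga

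The Tbx21 stretch held 1 E-box, a sequence that ZEB proteins and E proteins are known to read, and the Prdm1 stretch held 1 E-box and 1 AP-1 motif. The Eomes stretch held 1 IRF motif and the Batf stretch 2 RUNX motifs. An E-box occurred in 4 of the 17 upstream stretches (of Tox2, Tbx21, Prdm1 and Runx3), where 17.2% of 32851 mouse promoters of this length held one. Tox2 with 5 starts and Zeb2 with 4 had more chances of a match than members with a single start. A RUNX motif occurred in 2 of the 17, of Batf and Runx3 (14% of all promoters), and an AP-1 motif in 2, of Prdm1 and Zeb2 (6.75%). The IRF motif was found in the 1 stretch of Eomes (2.98%), and the T-box motif GGTGTGA upstream of no member (3.33%). These are matches of letters, and binding was not measured. The Prdm1 start shown lies inside the gene as annotated, which spans chr10:44437177-44528501.

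Prdm1, which encodes Blimp-1, the repressor that drives terminal effector fates, was low in all libraries, and its difference between the groups did not pass the test. The reads numbered 14, 4, 13, 4 and 8 in untreated mice 1 to 5 and 7, 12, 0, 4, 4 and 6 in aLAG3 mice 6 to 11. On the CPM scale these were 10.9, 12.5, 11.0, 9.75 and 14.3 in untreated mice and 0 to 14.4, with a median of 6.30, in aLAG3 mice. Of the aLAG3 libraries, 4 lay below every untreated library and the other two, replicates 10 and 11, lay among or above them on 4 and 6 reads. The untreated mean was 11.7 ± 1.75 CPM (SD, n = 5) and the aLAG3 mean 7.43 ± 5.35 CPM (SD, n = 6). In the fit without a filter the log2 fold change was -0.77 ± 0.41 (SE, 95% interval -1.57 to 0.038, edgeR unadjusted p = 0.0617, adjusted p = 0.725). Within barcode 9 the groups did not overlap, with 10.9 to 14.3 CPM in untreated and 4.72 to 6.32 CPM in aLAG3 mice. Prdm1 was the 1 of 10 members with that pattern, where 717 of 24024 symbols, or 2.98%, had aLAG3 below untreated without overlap in those 6 libraries. In barcode 8, untreated replicate 4 had 9.75 CPM and the aLAG3 libraries 0 to 14.4 CPM, each on 6 reads or fewer. Among the 3 libraries with a shared name, Prdm1 was at 12.5 and 11.0 CPM in untreated replicates 2 and 3 and at 12.9 CPM in aLAG3 replicate 10, and with that name as a term its log2 fold change turned to 0.085 ± 0.96 (SE). Leaving out 1 library moved the log2 fold change between -0.97 and -0.62. The unadjusted p of Prdm1 was 0.0172 in the likelihood ratio test of edgeR and 0.0321 in barcode 9 alone, and it was 0.0346 and 0.0243 without aLAG3 replicates 10 and 11, while no adjusted p passed. Plasma cells, which use Blimp-1 heavily, were not seen through their defining gene Jchain, with 0 reads in all 11 libraries, while Sdc1 had 45 reads in all.

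Id2, whose product captures E proteins and is known to favour effector over memory and precursor states, had the highest CPM of the group. Untreated mice 1 to 5 had 198, 369.9, 229, 239 and 219.5 CPM, and aLAG3 mice 173 to 284 CPM with a median of 239.8. Untreated replicate 2, the barcode 10 library, stood above all others with a 95% counting interval of 306 to 443 CPM. The log2 fold change was -0.036 ± 0.13 (SE, 95% interval -0.31 to 0.24, unadjusted p = 0.788 in edgeR), and it was 0.10 without untreated replicate 2. Within barcode 9 the means were 215 ± 15.9 CPM in untreated and 251 ± 34.6 CPM in aLAG3 mice (SD, n = 3 each), and their ranges overlapped. Id3, the paralog held by precursor and memory cells, was near the detection limit with 62 reads over the 11 libraries. The log2 ratio of Id2 to Id3 was 5.58 ± 1.30 in untreated (SD, n = 5) and 4.64 ± 0.593 in aLAG3 mice (SD, n = 6), and the means differ by -0.95 (two-sided exact permutation test, p = 0.106, adjusted over 6 ratios 0.242). That difference shrank to -0.37 without untreated replicate 2, which had no Id3 read.

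Batf and Irf4 encode partners that bind composite DNA elements after T cell receptor signalling, and neither moved beyond the spread of the mice. Batf was at 81.3, 113, 116, 80.4 and 109 CPM in untreated mice 1 to 5 and at 76.8 to 103 CPM (median 93.4) in aLAG3 mice. The aLAG3 values lay inside the untreated range except in replicates 6 and 8, which lay just below it. The Batf log2 fold change was -0.12 ± 0.14 (SE, 95% interval -0.40 to 0.16, edgeR unadjusted p = 0.390). Irf4 was at 58.6, 59.6, 61.0, 87.7 and 57.1 CPM in untreated mice and at 35.4 to 81.6 CPM (median 67.6) in aLAG3 mice. Untreated replicate 4 stood above the other untreated mice, which lay between 57.1 and 61.0 CPM, and the aLAG3 mice were spread on both sides of them. Irf4 had the smallest difference of the group, with a log2 fold change of 0.0039 ± 0.18 (SE, 95% interval -0.37 to 0.37), and its sign turned with the normalization.

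Runx3, a factor of CD8 lineage identity and tissue residency, was at 60.9, 37.6, 38.1, 78.0 and 44.6 CPM in untreated mice 1 to 5 and at 41.8 to 81.6 CPM (median 53.0) in aLAG3 mice. The highest values of both groups came from barcode 8 libraries, untreated replicate 4 and aLAG3 replicate 11. Its log2 fold change was 0.12 ± 0.20 (SE, 95% interval -0.28 to 0.53), and it was -0.013 with primer barcode as a term. Zeb2, which encodes the repressor that acts with T-bet in terminal effector cells, was the steadiest of the group, at 36.7 to 47.0 CPM in untreated and 35.4 to 48.3 CPM in aLAG3 mice. Its variance within groups was 0.398 of that expected from counting alone, compared with 6.28 for Id2, and its log2 fold change was 0.024 ± 0.17 (SE, 95% interval -0.32 to 0.37). Summed myeloid markers, a cell type in which Zeb2 is also used, ran from 12.6 to 47.7 CPM in untreated and from 11.8 to 102 CPM in aLAG3 libraries. Of the 10 myeloid genes, S100a8 and S100a9 were at 0 throughout. The most reads over all libraries were those of C1qb (90), Lyz2 (85), C1qa (48) and C1qc (44). The part of myeloid cells in the Zeb2 level was not tested. Exons of Zeb2 overlap Zeb2os on the other strand, and 2.26% of its 50-base stretches are shared with other genes.

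**Figure D2:**
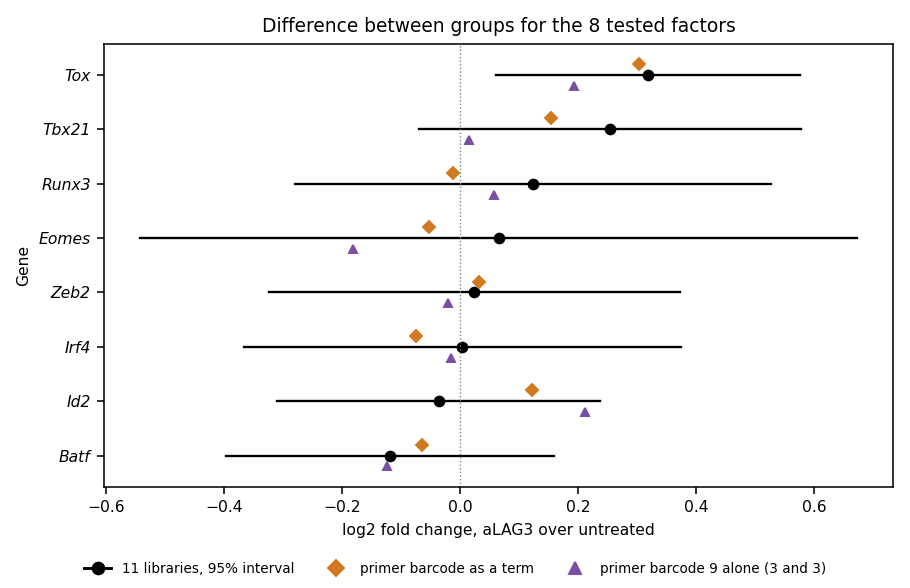
Log2 fold change of aLAG3 over untreated (x axis) for the 8 tested factors; black points and lines are the estimate from 11 libraries and its 95% interval, orange diamonds the estimate with primer barcode as a term and purple triangles the estimate from barcode 9 alone. The interval of Tox alone, 0.061 to 0.58, lies above 0, and for Tbx21 the estimate falls from 0.25 to 0.015 in barcode 9.

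The members spanned a wide range of levels in these precursor cells. By the study's methods the barcode that assigns a read to its library was added at the template-switch end of the cDNA, which is the 5′ end of the transcript, before fragmentation. Reads are then expected from that end only, so the CPM were put in order without division by transcript length, and capture may still differ between genes. Id2 was highest with 242 ± 51.8 CPM over the 11 libraries (SD), followed by Tox with 148 ± 30.2 CPM. Batf (95.2 ± 14.6 CPM), Tbx21 (87.8 ± 21.7), Irf4 (64.9 ± 14.5), Runx3 (55.1 ± 15.8) and Zeb2 (42.03 ± 4.76) came next. Eomes (18.8 ± 6.74 CPM), Prdm1 (9.37 ± 4.53) and Tox2 (0.432, with 9 libraries at 0) closed the order. The ranges of neighbours overlapped at every step except from Zeb2 to Eomes. Within single libraries Id2 stood above Tox in 10 of 11 and Tox above Batf in 10 of 11, whereas Batf stood above Tbx21 in 5 of 11, so these last were not separated by level. The order depends on leaving length out, because division by the longest coding transcript would place Batf, with a transcript of 955 bases, above Tox, with one of 3961 bases.

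**Figure D3:**
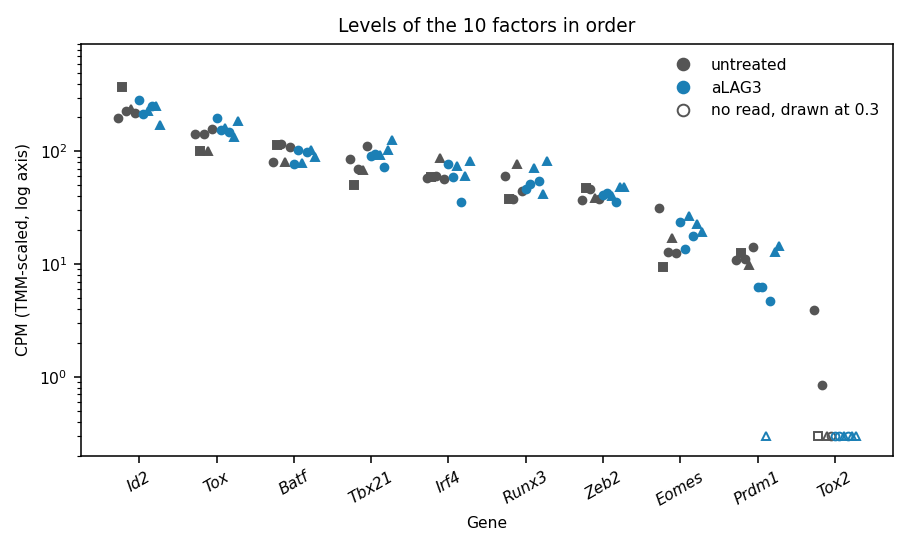
Level of the 10 factors in TMM-scaled CPM (y axis, log scale), ordered by mean, with one point per library (grey untreated, blue aLAG3, marker shape by primer barcode) and open points at the bottom for libraries without a read. Id2 and Tox lie highest, and Eomes, Prdm1 and Tox2 lie below all values of Zeb2.

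Paralogs and binding partners of the factors did not pass the test either. Of 21 such genes 20 were in the table and 16 were tested, and 0 passed the adjusted threshold of edgeR's quasi-likelihood test. At an unadjusted p under 0.05 there was 1 of the 16, beside 3.71% of all genes tested. Tcf3, which encodes an E protein that ID2 captures, had an unadjusted p under 0.05, going from 52.9 ± 11.6 CPM (SD, n = 5) to 40.8 ± 14.99 CPM (SD, n = 6). Its log2 fold change was -0.54 ± 0.26 (SE, edgeR unadjusted p = 0.0462, adjusted p = 1.00). The median log2 fold change of the 16 was -0.082 (-0.047 without untreated replicate 1 and -0.35 with the shared library name as a term), with 12 below 0, where 48.9% of all genes tested were below 0. That number was 9 without aLAG3 replicate 10, 11 with primer barcode as a term and 13 without untreated replicate 4. Junb, a Jun partner of BATF, was the most abundant at 1842 CPM over all libraries, with a log2 fold change of 0.11 ± 0.071 (SE). Irf8, which also pairs with BATF, averaged 401 ± 77.7 CPM over untreated mice (SD, n = 5) and 359 ± 41.6 CPM over aLAG3 mice (SD, n = 6). Irf1 (254 CPM) and Jund (155 CPM) had log2 fold changes of -0.036 ± 0.13 and 0.082 ± 0.13 (SE). Tox4, Runx1, Runx2, Cbfb and Zeb1 were detected in every library, with log2 fold changes from -0.20 to 0.19.

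The same held for factors of the precursor state. Of the 10 listed, 9 were tested, 0 had an adjusted or unadjusted p under 0.05, and their median log2 fold change was -0.058 with 5 below 0. That median was 0.0041 with DESeq2, and leaving out a library moved it between -0.18 (untreated replicate 2) and 0.11 (untreated replicate 1), so it has no stable sign. Tcf7, which encodes TCF-1, was at 111 ± 42.3 CPM in untreated (SD, n = 5) and at 110 ± 31.6 CPM in aLAG3 mice (SD, n = 6). Foxp1 (74.1 CPM over all libraries), Satb1 (60.1) and Bach2 (37.5) had log2 fold changes of 0.19 ± 0.15, 0.044 ± 0.18 and -0.10 ± 0.21 (SE). Ratios within a library, which do not depend on its scaling, set a member against its opposing factor or its paralog. The log2 ratio of Tox to Tcf7 was 0.272 ± 0.350 in untreated (SD, n = 5) and 0.615 ± 0.310 in aLAG3 mice (SD, n = 6), and the means differ by 0.34 (two-sided exact permutation test, p = 0.121, adjusted 0.242). Prdm1 over Bcl6 went from -0.642 ± 0.917 (SD, n = 5) to -1.94 ± 1.56 (SD, n = 6), a difference of -1.30 (exact permutation p = 0.121, adjusted 0.242), which became -0.70 without aLAG3 replicate 8, the library with no Prdm1 read. The differences for Batf over Bach2 (-0.17, exact permutation p = 0.647) and Zeb2 over Zeb1 (-0.088, exact permutation p = 0.734) were within the spread of the mice. None of the 6 ratios passed an adjusted p of 0.05, and the smallest p that the 462 splits allow is 0.00216.

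**Figure D4:**
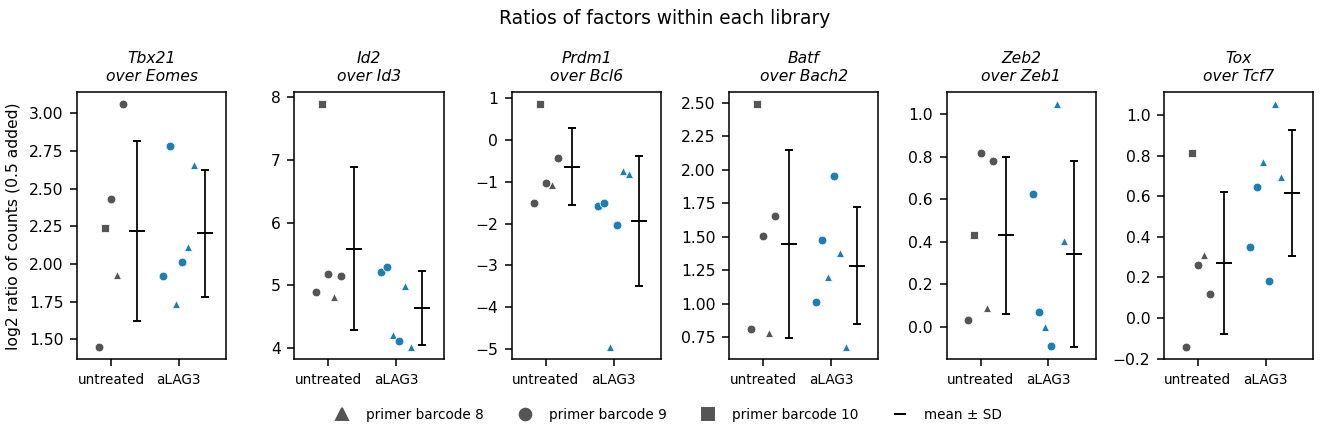
Log2 ratio of read counts, with 0.5 added to each count, for 6 pairs of factors (y axis, scale differs by panel) in untreated (grey) and aLAG3 (blue) libraries, marker shape giving the primer barcode and black bars the mean ± SD. The groups overlap in every panel; untreated replicate 2 at 7.89 for Id2 over Id3 and aLAG3 replicate 8 at -4.95 for Prdm1 over Bcl6 rest on a count of 0.

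Genes commonly described as outputs of these factors were read beside them. Of 14 effector genes, among them the targets of T-bet and EOMES, 12 were tested, 0 passed the adjusted threshold in edgeR and Gzma had an unadjusted p under 0.05. Gzma, which encodes granzyme A, had 36.9 ± 17.4 CPM in untreated (SD, n = 5) and 16.5 ± 9.72 CPM in aLAG3 mice (SD, n = 6), a log2 fold change of -1.13 ± 0.31 (SE, unadjusted p = 0.00109, adjusted p = 1.00). The effector genes with the most reads had log2 fold changes of 0.023 ± 0.065 for Nkg7, -0.26 ± 0.15 for Ccl5, -0.059 ± 0.11 for Il2rb and -0.29 ± 0.19 for Gzmb (SE). The median over the 12 tested effector genes was -0.037, and 0.014 without untreated replicate 4. Of 11 genes tied to exhaustion, 6 were tested and 0 passed the adjusted threshold. Their median log2 fold change was -0.067 with 4 below 0, and it was 0.0095 without untreated replicate 4 and 0.012 in barcode 9 alone. At an unadjusted p under 0.05 there was 1 of these 6 (Pdcd1) and 1 of the 12 effector genes (Gzma), beside 3.71% of all genes tested. Pdcd1, which encodes PD-1 and was also a marker of the sort, had 681 ± 68.3 CPM in untreated (SD, n = 5) and 575 ± 96.3 CPM in aLAG3 mice (SD, n = 6), with a log2 fold change of -0.24 ± 0.10 (SE, edgeR unadjusted p = 0.0268, adjusted p = 1.00). Tigit, Nr4a2, Ctla4 and Cd160 had log2 fold changes of 0.015 ± 0.090, -0.097 ± 0.13, 0.12 ± 0.087 and -0.036 ± 0.096 (SE). Klrg1 (13 reads in all) and S1pr5 (1 read in all), genes of terminal effector cells in which ZEB2 and T-bet act, were under the filter.

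**Figure D5:**
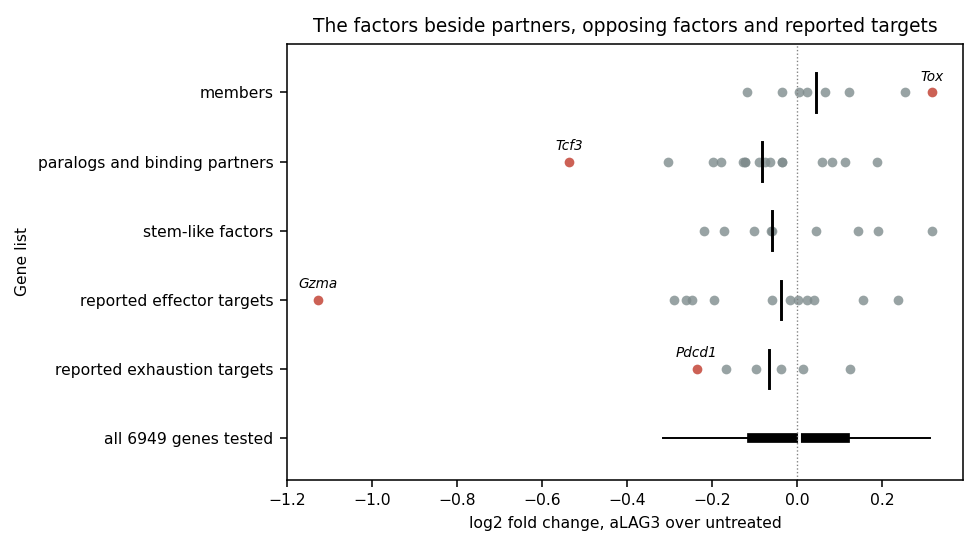
Log2 fold change of aLAG3 over untreated (x axis) for the tested genes of each list, one point per gene, red where the unadjusted p is under 0.05, with black ticks at the list medians; the lowest line gives all 6949 genes as quartiles (thick), 5th to 95th percentile (thin) and median (white tick). Gzma at -1.13 and Tcf3 at -0.54 lie farthest from 0, and Tox at 0.32 is the one red point above 0.

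Across the 11 libraries some members ran together and others ran oppositely. These correlations of log2 CPM are descriptions over 11 points that share depth and primer barcode. Tox and Tbx21 had the highest Pearson r of the 28 pairs of tested members, 0.75, and 0.61 without untreated replicate 2. Eomes and Batf had the lowest, -0.80, and -0.76 without that library, while Batf and Runx3 had -0.72 and Tbx21 and Id2 -0.73. The last of these fell to -0.47 without untreated replicate 2. Irf4 and Batf, whose products bind DNA together, had an r of -0.51. Among genes with a mean of at least 50 CPM, the pattern most like that of Tox was found for Gpr174 and Ntan1 (r = 0.91 each), and most like that of Tbx21 for Becn1 and Rps12-ps3 (0.89 each). Those for Eomes were Senp1 and Ddx27 (0.84 and 0.83), for Id2 Sipa1 and Zfp36l2 (0.86 and 0.84), and for Batf Afg3l2 and Syt11 (0.88 and 0.85). For Irf4 they were Cib1 and Ppp1r11 (0.89 and 0.86), for Runx3 Otub1 and Itpkb (0.87 each), and for Zeb2 Fam173a and Gm5537 (0.91 and 0.86). Each was chosen as the best of 3336 or 3337 genes over 11 libraries.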

How the data were processed

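RNA was measured in 11 libraries, 1 per mouse, 5 untreated and 6 aLAG3, grouped by the treatment in the labels. Per the study's methods, reads were trimmed with Cutadapt and mapped with Bowtie2 to reference RNA of GRCm38 (cutadapt 4.1 and Bowtie2 2.4.5 in the submitters' processing notes). The authors deposited raw counts per gene symbol. Handling of multi-mapping reads and of strand is not given in the sources used here.

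Counts were filtered with filterByExpr (10 counts at the median depth in 5 libraries, 15 in all), TMM-normalized and tested with the quasi-likelihood test of edgeR 4.0.16 in R 4.3.3, with common, trended and tagwise dispersions and Benjamini-Hochberg adjustment over all genes tested at 0.05. Members under the filter were taken from a fit of every gene with at least 1 count. The SE of a log2 fold change is its size over the square root of F. CPM are on TMM-scaled totals, marker sums on total counts, and counting intervals are exact binomial. Log2 CPM used a prior count of 2, ratios a pseudocount of 0.5. Coordinates and lengths are from GENCODE M21. Alternatives covered the test (likelihood ratio, DESeq2 1.42.0), normalization, filter, dispersion, primer barcode, shared library name, pseudocount and each library left out. Tests were run on simulated data first.

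The members and lists were chosen with earlier results of these data known. Named are the 10 members, list genes with an unadjusted p under 0.05 and up to 4 more per list by mean CPM, the 2 genes most like each tested member in log2 CPM, and markers. Tox4, Runx1, Runx2, Cbfb, Zeb1, Klrg1 and S1pr5 are list genes named after their values were seen.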

Additional observations from a re-analysis of the deposited data

Results flagged for a closer look

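Of 30 sets of values (the 8 tested members, the 6 ratios and the total counts, in each group), 3 had a library far from the rest of its group, where chance gives about 1 in 20. The log2 CPM of Irf4 was 6.495 in untreated replicate 4, and the nearest other untreated mouse was at 5.988. The log2 ratio of Id2 to Id3 was 7.889 in untreated replicate 2, which had no Id3 read, and the nearest was 5.173. The log2 ratio of Prdm1 to Bcl6 was -4.954 in aLAG3 replicate 8, which had no Prdm1 read, and the nearest was -2.04.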

How the results depend on the processing

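No member passed the adjusted threshold under any of the alternatives run, including each library left out in turn. Over all genes, 7 passed with every gene of at least 1 count, 16 with the shared library name as a term and 0 in each fit with a library left out. The 258 genes with an unadjusted p under 0.05 became 163 with DESeq2, 1086 with every gene of at least 1 count, 423 in barcode 9 alone, 485 with the library name as a term and 219 to 344 with a library left out. Tox kept its sign throughout, with log2 fold changes of 0.065 to 0.33 over the alternatives (unadjusted p 0.0139 to 0.824) and 0.24 to 0.38 with a library left out. Tbx21 (0.015 to 0.67) and Batf (-0.16 to -0.064) also kept theirs, Prdm1 turned to 0.085 with the library name as a term and lay between -0.97 and -0.77 under the other processing alternatives and between -0.97 and -0.62 with a library left out, and with a library left out Tbx21 ran from 0.18 to 0.39 and Batf from -0.22 (without untreated replicate 1) to -0.033 (without untreated replicate 3). Irf4 turned to -0.0020 with DESeq2, -0.0013 with RLE, -0.00073 with total counts, -0.00035 with a mean of at least 10 counts, -0.075 with primer barcode as a term and -0.015 in barcode 9, and ran from -0.090 to 0.14 with a library left out. With barcode as a term Eomes was -0.053, Id2 0.12 and Runx3 -0.013, and in barcode 9 alone Eomes was -0.18, Id2 0.21 and Zeb2 -0.020. With a library left out Eomes ran from -0.077 to 0.060 (it missed the filter in 4 such fits), Id2 from -0.13 to 0.10, Runx3 from -0.0083 to 0.25 and Zeb2 from -0.041 to 0.099. The difference in the Tbx21 to Eomes ratio was 0.010 with a pseudocount of 1 and -0.21 to 0.19 with a library left out, that of Batf to Bach2 0.16 in barcode 9 and -0.33 to 0.094, and that of Zeb2 to Zeb1 -0.23 to 0.0092. The cause of these reversals was not tested. The fits by estimateDisp without a robust step and with the shared library name as a term were added after seeing the data. With that name as a term Eomes moved to 0.92, on 3 libraries. The groups share no replicate number, so no analysis paired by mouse was run. The fit with the library name as a term compares the groups within 3 libraries only.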
